A study of Mus musculus with 4 samples.

Results

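Collagen genes and Adamts genes, the genes of the fibres and sheets of the extracellular matrix and of secreted proteases that cut matrix proteins, were examined in DNA from intestine of young and old mice. Members were all autosomal array probes whose gene name was a collagen chain (Col with its type and chain number), an Adamts or an Adamtsl. There were 49 such genes among 16949 autosomal gene names, of which 32 were collagens, 14 were Adamts and 3 were Adamtsl. They carried 299 of 79904 autosomal probes on 15 chromosomes. Genomic DNA of C57BL/6 mice, an inbred laboratory strain, aged 3 months was labelled with Cy3 (green) and DNA of mice aged 32 months with Cy5 (red), and both were hybridised to the same 2 custom Agilent arrays. The first array was labelled as covering chromosomes 1 to 8 and the second the remaining ones, although the Col5a3 regions of chromosome 9 sat on the first. Each age was hybridised once to each array without swapping the dyes, so dye and age cannot be told apart, no difference has a replicate check and no p-value is given. How the DNA was enriched by methylation, how many mice of which sex contributed, and which genome build was used is not given in the sources used here.

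Collagens are trimeric matrix proteins. The fibrillar types bear tension, type IV forms the network of basement membranes under the gut epithelium, and other types join fibrils, anchor epithelia or span the cell membrane. Adamts enzymes are secreted zinc metalloproteases that trim procollagens or cut proteoglycans, and the Adamts-like proteins share their matrix-binding modules but lack the protease domain. DNA methylation at cytosines followed by guanine (CG) near gene starts is one of the marks whose level is known to shift with age in the gut.

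The values are processed signals, in the scanner's intensity units, and the log2 ratio of the 32-month over the 3-month signal minus the median of its array. Neighbouring probes of 1 gene name at most 1000 bp apart formed a region, and 62 regions held the members, 34 of them on the first array. A probe was usable when at least 1 of the 2 ages was well above background, which held for 248 of 299 member probes, and a region was measured when at least 2 of its probes were usable. That left 56 of 62 regions and 46 of 49 genes measured. The region value is the median over usable probes, given with the SD over those probes, which is no replicate error. A region was called when this median was at least 1 or at most -1 (2-fold) with every usable probe on that side of 0. Between 70.1% and 72.5% of probes were well above background at each age on each array, and none was saturated. The labels name intestine without a layer or segment. In such DNA a larger share of cells carrying a signal and more signal per cell cannot be told apart. Positions are those in the files, and probe classes (promoter, inside the gene, divergent promoter) are those of the array's design.

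The sequences shown first are the promoter probes of Adamts5, Col2a1 and Col13a1, which hold adjacent probes with large and small age differences, and those of Col3a1, which were dim at both ages. Each is printed 5′ to 3′ as deposited, with CG in capitals, numbered along the chromosome. The strand and build are not stated in the files.

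Adamts5 encodes an aggrecanase, which cleaves the cartilage proteoglycan aggrecan.
Adamts5 probe 1, chr16:85789487-85789537: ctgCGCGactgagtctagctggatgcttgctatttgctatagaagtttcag
Adamts5 probe 2, chr16:85789681-85789735: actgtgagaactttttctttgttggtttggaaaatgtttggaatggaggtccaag
Adamts5 probe 3, chr16:85789861-85789917: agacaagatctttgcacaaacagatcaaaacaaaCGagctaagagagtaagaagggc
Adamts5 probe 4, chr16:85790077-85790136: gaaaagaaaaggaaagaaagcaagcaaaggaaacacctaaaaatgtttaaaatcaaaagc
Adamts5 probe 5, chr16:85790248-85790293: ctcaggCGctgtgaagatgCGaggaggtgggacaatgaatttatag
Adamts5 probe 6, chr16:85790395-85790439: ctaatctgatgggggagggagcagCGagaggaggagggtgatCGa

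Col2a1 encodes the fibrillar collagen of cartilage.
Col2a1 probe 1, chr15:97833032-97833076: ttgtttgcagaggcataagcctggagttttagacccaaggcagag
Col2a1 probe 2, chr15:97833281-97833326: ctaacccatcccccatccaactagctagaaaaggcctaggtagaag
Col2a1 probe 3, chr15:97833450-97833494: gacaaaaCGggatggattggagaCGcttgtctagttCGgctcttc
Col2a1 probe 4, chr15:97833652-97833696: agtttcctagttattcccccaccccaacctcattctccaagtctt

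Col13a1 encodes a collagen that spans the cell membrane.
Col13a1 probe 1, chr10:61374742-61374789: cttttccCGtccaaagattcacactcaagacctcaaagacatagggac
Col13a1 probe 2, chr10:61374926-61374971: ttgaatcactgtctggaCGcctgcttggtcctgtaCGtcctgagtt
Col13a1 probe 3, chr10:61375126-61375184: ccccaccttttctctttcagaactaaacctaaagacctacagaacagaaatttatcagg
Col13a1 probe 4, chr10:61375402-61375454: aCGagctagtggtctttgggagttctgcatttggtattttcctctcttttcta

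Col3a1 encodes the type III fibrillar collagen of extensible tissues such as the gut wall.
Col3a1 probe 1, chr1:45255186-45255245: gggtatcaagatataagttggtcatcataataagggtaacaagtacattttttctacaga
Col3a1 probe 2, chr1:45255334-45255393: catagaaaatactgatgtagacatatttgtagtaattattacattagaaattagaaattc
Col3a1 probe 3, chr1:45255574-45255633: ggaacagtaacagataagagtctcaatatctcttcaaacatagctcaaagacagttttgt
Col3a1 probe 4, chr1:45255929-45255988: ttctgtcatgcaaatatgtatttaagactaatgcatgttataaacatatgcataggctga

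Among 56 measured member regions, 2 were called higher at 32 months, those of Adamts19 and Col4a2, and none was called lower. Over all autosomal regions, 2.05% of 14835 were called higher (304) and 0.519% lower (77). Higher calls thus made up 79.8% of autosomal calls, against 69.3% with uncentred ratios and 98.1% with normexp background correction. The normexp alternative started from signals not scaled between dyes, so it differed in more than the background step. The member count of 2 in 56 is close to that autosomal share. Leaving the ratios uncentred lowers the second array by 0.14.

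Adamts19 encodes a member of the family whose substrates are largely unknown. Its region on chromosome 18, 58961133 to 58962470, held 6 probes, of which 4 were promoter probes and 2 lay inside the gene. At 3 months their processed signals were 5040, 4090, 3180, 5360, 1810 and 12300 in order along the chromosome. At 32 months the same probes had 77900, 59300, 81800, 69900, 134000 and 533000. Each of the 6 probes was brighter in the 32-month sample. The median log2 ratio was 4.46 ± 1.01 (SD over 6 probes), or 22.0-fold, with single probes between 14.4-fold and 81.5-fold. The region spanned 1338 bp without a probe near 0, and the 2 largest ratios, 6.35 and 5.58, belonged to the probes inside the gene.

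Col4a2 and Col4a1 encode the chains of the ubiquitous basement membrane collagen and lie head to head on chromosome 8. The Col4a2 region, 11313234 to 11313437, held 2 probes inside the gene. Their signals were 344 and 329 at 3 months and 1530 and 1150 at 32 months. The median log2 ratio was 1.97 ± 0.25 (SD over 2 probes), or 3.93-fold. Under normexp background correction the probes had 1.02 and 0.94 and the region, at 0.98, was not called. The Col4a1 region starts at 11312052 and its last probe ends 932 bp from the first Col4a2 probe. The signals of its 2 probes were 3140 and 1920 at 3 months and 2950 and 1920 at 32 months, and its log2 ratio was -0.05 ± 0.06 (0.31 with normexp). So of these neighbouring genes the Col4a2 side was brighter at 32 months while the Col4a1 side lay near the array's median.

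The other basement membrane chains measured were those of the type IV network found in kidney, lung and inner ear. Col4a4 had -0.36 ± 0.13 and Col4a3 had -0.17 ± 0.05, each over 2 usable probes of 3, and Col4a4 moved to 0.01 with normexp. The single probe of their shared promoter had signals of 1570 and 1530 at 3 and 32 months and formed no measured region.

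**Figure D1:**
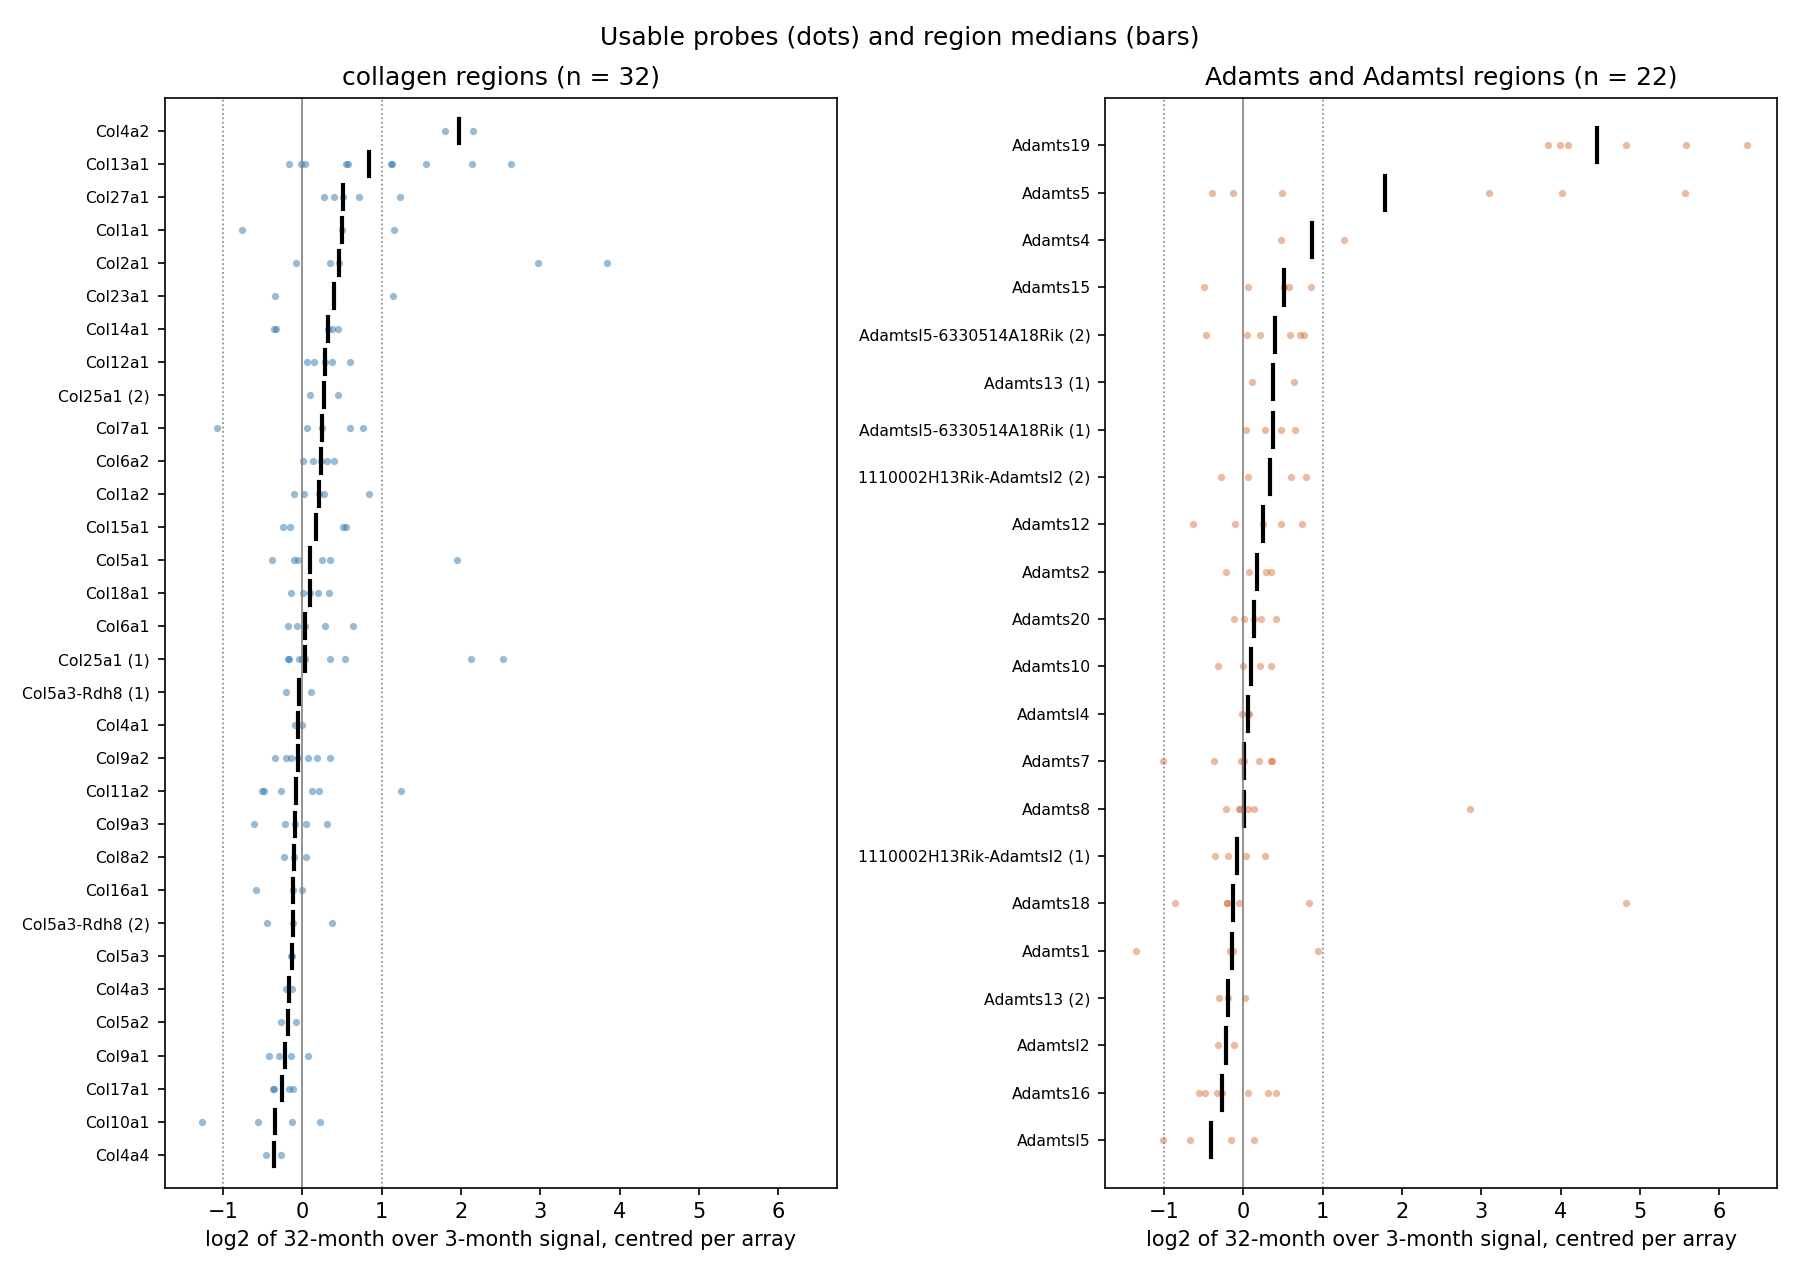
Log2 ratio of 32-month over 3-month signal, centred per array, for the usable probes (dots) and region medians (bars) of the 32 collagen regions and 22 of the 24 Adamts and Adamtsl regions, sorted by median. Dotted lines mark -1 and 1; most medians crowd around 0, Adamts19 stands at 4.46 with no probe below 3.84, and Adamts5 splits into 3 probes near 0 and 3 above 3.

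Adamts5 reached a median of 1.79 ± 2.47 over 6 usable probes of 7 and was not called, because its lowest probe lay at -0.40. This median depended on the probe filter, with 0.49 over all 7 probes and 3.09 over probes well above background at both ages. The probe inside the gene had signals of 11600 at 3 months and 8000 at 32 months. Promoter probes 1 to 3 printed above had 145, 67.5 and 67.7 at 3 months and 120, 61.6 and 86.2 at 32 months, with probe 2 not well above background at either age. Promoter probes 4 to 6 had 680, 2700 and 7320 at 3 months and 29400, 39600 and 56700 at 32 months. The contrast lay within 1 promoter. The log2 ratios of probes 4 to 6 were 5.57, 4.01 and 3.09 over 363 bp, and those of the other 3 usable probes ran from -0.40 to 0.49. Probe 4 holds no CG in its own letters and probes 5 and 6 hold 2 each. Probe 1 also holds 2, probe 2 holds none, and probe 3 and the inside probe hold 1 each.

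A run of adjacent usable probes that each had a log2 ratio of at least 1 was found in 6 of 56 member regions (10.7%), against 4.21% of all measured autosomal regions. These were the regions of Adamts19, Adamts5, Col4a2, Col2a1, Col13a1 and Col25a1. The last 4 are collagens, 1 in the basement membrane, 1 in cartilage fibrils and 2 in the cell membrane. In 4 of the 6, all but Adamts19 and Col4a2, the same region also held usable probes near 0.

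Col2a1 held such a run in its promoter. Its probes 1 and 2 printed above had signals of 8430 and 10400 at 3 months and 110000 and 73700 at 32 months, which gave log2 ratios of 3.84 and 2.96 over 295 bp. Probes 3 and 4 had 228 and 4700 at 3 months and 284 and 4040 at 32 months, with log2 ratios of 0.46 and -0.08. The probe inside the gene had 725 and 839. The region median was therefore 0.46 ± 1.77 (5 probes). Probes 1 and 2, with the large difference, hold no CG in their letters, and neither does probe 4. Probe 3 holds 3 and the inside probe 2.

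Col13a1 had 2 runs among its 10 usable probes and the highest median of the membrane-spanning class, 0.84 ± 0.94. Promoter probes 1 to 3 printed above had 1600, 3780 and 247 at 3 months and 6380, 10100 and 1390 at 32 months, or log2 ratios of 2.13, 1.56 and 2.63 over 443 bp. The second run lay inside the gene, where 2 probes had 8470 and 28400 at 3 months and 16800 and 55700 at 32 months, or 1.13 and 1.11. With uncentred ratios this second run fell just short of the threshold, at 0.99 and 0.97. The 3 probes between the runs had ratios from -0.17 to 0.04.

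Col25a1, the gene of a membrane collagen known from amyloid plaques, had its run inside the gene. Those 2 probes had 17000 and 7330 at 3 months and 74300 and 42300 at 32 months, or log2 ratios of 2.12 and 2.52 over 301 bp. The 4 usable promoter probes had ratios from -0.18 to 0.53 and the region median was 0.03 ± 1.02 over 9 probes. A second Col25a1 region had 0.27 ± 0.26 over 2 probes. Except for the inside run of Col13a1 with uncentred ratios and that of Col4a2 with normexp, every probe of the runs stayed at 1 or above with uncentred, loess, normexp, block-corrected and usable-probe-centred ratios.

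**Figure D2:**
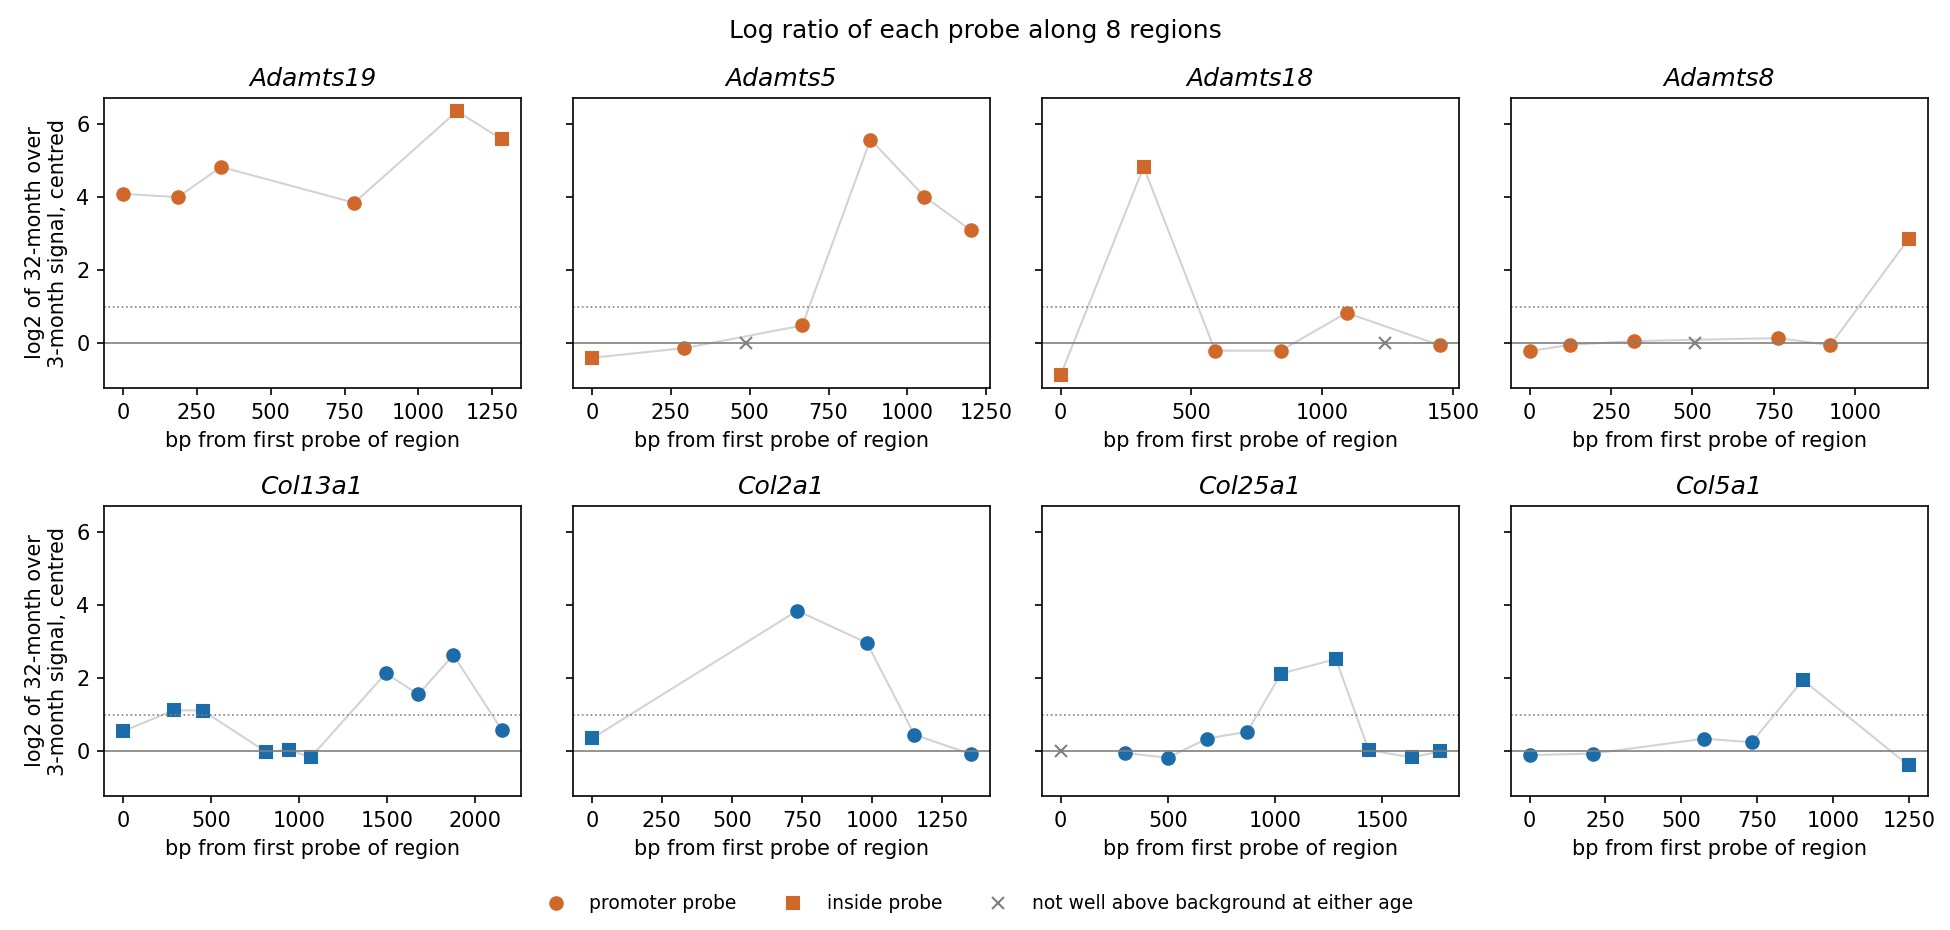
Log2 ratio of 32-month over 3-month signal, centred per array, for each probe along 8 regions, against distance in bp from the first probe. Circles are promoter probes, squares are probes inside the gene and crosses are probes not well above background at either age; the Adamts19 points all lie above 3.8, whereas in Adamts5, Col2a1, Col13a1 and Col25a1 high probes sit beside probes near 0, and Adamts18, Adamts8 and Col5a1 each have 1 high probe.

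Single probes with a large difference were spread over more regions. Of 248 usable member probes, 29 had a log2 ratio of at least 1 (11.7%), against 6.42% of 60360 autosomal probes. The share was 11.7% both in collagens (16 of 137) and in Adamts and Adamtsl genes (13 of 111). Of the 29, Adamts19 held 6, Col13a1 5 and Adamts5 3. Neighbouring probes of 1 region are not separate observations, so these shares rest in good part on few regions. At both ages 27 of the 29 were well above background. They lay in 15 measured regions (26.8%), 9 collagen and 6 Adamts, where 16.7% of autosomal regions held such a probe. A ratio of -1 or below was found at 5 member probes in 5 of 56 regions, near the autosomal share of 9.4% of regions, and 3.07% of autosomal probes had one. Those 5 belonged to Adamtsl5, Adamts7, Adamts1, Col7a1 and Col10a1, and 2 of them were well above background at both ages.

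Adamts18, the gene of another Adamts with few known substrates, shows how 1 probe can stand alone. One of its probes inside the gene had 16200 at 3 months and 460000 at 32 months, a log2 ratio of 4.82. The other inside probe had 1400 and 771, or -0.87, and the 4 usable promoter probes ranged from -0.20 to 0.83. The region median was -0.13 ± 2.08 over 6 probes. Adamts8, a protease of hyaluronan-binding proteoglycans, had the same layout, with 3960 and 26000 (2.85) at its inside probe. Its 5 usable promoter probes lay between -0.22 and 0.14, and the median was 0.01 ± 1.18. Adamts16, the closest relative of Adamts18, had -0.27 ± 0.38 over 7 probes, and 0.24 with normexp.

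The proteases of hyaluronan-binding proteoglycans formed 8 measured regions, with a median of 0.08, of which 6 lay above 0. Adamts5 was the highest, although Adamts4 lay above it with dim probes kept, and Adamts1, which cleaves versican, the lowest at -0.15 ± 0.94 over 4 usable probes. The 3-month signals of all 5 Adamts1 probes were between 67.2 and 183 and the 32-month signals between 56.0 and 200, close to the background. Adamts4, the other main aggrecanase, had 2 probes inside the gene with 264000 and 151000 at 3 months and 367000 and 366000 at 32 months. Its ratio was 0.87 ± 0.57, which became 1.38 and a call with normexp. Adamts15 had 0.52 ± 0.53 and Adamts20 0.14 ± 0.21, each over 5 usable probes.

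Among the remaining Adamts genes, no measured region reached 0.5 in either direction. Adamts2, which removes the amino-terminal propeptide of procollagens, had 0.18 ± 0.26 over 4 probes, with median signals of 799 and 747 at 3 and 32 months. Adamts12 had 0.25 ± 0.54 and Adamts7 0.01 ± 0.49 (-0.13 uncentred). Both cut cartilage oligomeric matrix protein. Adamts10, which acts on fibrillin microfibrils, had 0.10 ± 0.29 (-0.04 uncentred). Adamts13, the protease of von Willebrand factor, had 0.38 ± 0.38 over 2 probes of one region and -0.19 ± 0.17 over 3 probes of another. In the latter, signals were 223, 117 and 544 at 3 months and 228, 95.1 and 478 at 32 months. Its 2 regions shared with Rexo4 had 1 usable probe each, at 0.76 and 0.59, and were not measured.

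The Adamts-like genes had 7 regions, with a median of 0.06 and 4 above 0. The lowest Adamts value, -0.41 ± 0.51 over 4 probes, belonged to the Adamtsl5 region inside the gene, and it was 0.31 with normexp. The 2 regions shared by Adamtsl5 and its neighbour 6330514A18Rik had 0.38 ± 0.26 and 0.40 ± 0.48. Adamtsl2, linked to fibrillin microfibrils, had -0.22 ± 0.14 inside the gene and -0.08 and 0.34 in 2 shared regions. Adamtsl4, needed for anchoring the lens, had 0.06 ± 0.05 over 3 usable probes.

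Fibrillar collagens had 10 measured regions with a median of 0.02, of which 5 lay above 0 and none was called. Type I collagen, the main fibril of connective tissue, is built from Col1a1 and Col1a2. Col1a1 had 3 usable probes of 5, with signals of 106, 196 and 87.7 at 3 months and 56.8, 252 and 178 at 32 months. Its ratio was 0.50 ± 0.98, with 2 probes above 0 and 1 below. Over all 5 probes it was -0.06, with normexp 0.12, and over probes well above background at both ages 0.83. Col1a2 had 85.5, 619, 128, 258 and 146 at 3 months and 154, 628, 155, 240 and 170 at 32 months, or 0.22 ± 0.37. In neither gene did the probes all lie on the same side of 0.

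Col3a1 had no usable probe. Its 5 probes, 4 of which are printed above and hold no CG, had signals from 58.8 to 67.1 at 3 months and from 60.4 to 67.1 at 32 months. Not being well above background, these give no ratio. Col27a1, a minor fibrillar collagen of cartilage, had the highest value of the class at 0.51 ± 0.37, with all 5 probes above 0. Col5a2, a chain of the collagen that sets fibril diameter, had the lowest at -0.18 ± 0.13 over 2 usable probes of 5, and 0.04 with normexp. Its partner chain Col5a1 had 0.09 ± 0.84 with 1 inside probe at 1.95, where signals were 3380 and 13100. Col11a2 had -0.07 ± 0.66, and the 3 regions of Col5a3 lay between -0.14 and -0.05.

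The collagens of beaded filaments and anchoring fibrils had 3 regions, all above 0 as centred here. Col7a1, the anchoring fibril of stratified epithelia, was the highest at 0.25 ± 0.72, and its lowest probe had -1.07 with the 32-month signal not well above background. Col6a2 had 0.23 ± 0.15 and Col6a1 0.04 ± 0.32, each over 5 usable probes. Col6a1 signals of usable probes were 22200, 561, 958, 2160 and 826 at 3 months and 24600, 451, 1350, 2010 and 718 at 32 months. Col6a1 had no settled direction, with -0.10 uncentred, -0.11 with loess and 0.68 with normexp.

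Fibril-associated collagens, which decorate larger fibrils, had 6 measured regions with a median of -0.08, and 2 lay above 0. Col14a1 was the highest with 0.33 ± 0.40 over 5 usable probes, followed by Col12a1 with 0.29 ± 0.21. Col14a1 moved to 0.06 with normexp and to -0.002 over probes well above background at both ages, which took it below Col12a1, whose 5 usable probes were all well above background at both ages. Col9a1 was the lowest with -0.22 ± 0.21 over 4. Col9a2, Col9a3 and Col16a1 lay between -0.12 and -0.06, and Col19a1, with 1 usable probe of 4, was not measured. The 2 values above 0 came from the second array and the 4 below from the first, which bears on the comparison of lists below.

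Of the network-forming collagens of growth plate and eye, Col10a1 had 4 usable probes of 10 and -0.34 ± 0.64 (0.01 with normexp). Col8a2, with all 3 probes well above background at both ages and median signals of 4430 and 4140 at 3 and 32 months, had -0.10 ± 0.14 (0.31 with normexp), and Col8a1, with 1 usable probe of 4, was not measured. Col18a1, whose carboxy-terminal fragment is endostatin, had 187, 372, 950, 3860 and 3280 at 3 months and 181, 425, 992, 3180 and 3000 at 32 months. Its ratio was 0.09 ± 0.18 (-0.05 uncentred, 0.55 with normexp), and that of its relative Col15a1 was 0.17 ± 0.42. Of the membrane-spanning collagens, Col17a1 of the hemidesmosome was the lowest with -0.26 ± 0.13 and all 4 usable probes below 0. That value ranged from -0.40 uncentred to -0.02 with normexp. Col23a1 had 0.40 ± 1.05 over 2 probes with opposite signs.

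Set against each other, the collagen and Adamts lists had similar ratios. The 32 collagen regions had a median of 0.03 (interquartile range -0.12 to 0.28), with 17 above 0, and this median was -0.04 with uncentred ratios. The 24 Adamts and Adamtsl regions had 0.08 (interquartile range -0.10 to 0.38), with 16 above 0. All autosomal regions had 0.02 (interquartile range -0.14 to 0.21), with 52.6% above 0. The difference between the list medians was 0.048. The SD over regions was 0.44 in collagens and 0.98 in Adamts, where it includes Adamts19 at 4.46. These SDs describe the spread of single regions and are no error of that difference.

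As centred here, the arrays differed more than the lists did. On the first array collagens had a median of -0.06 (19 regions), Adamts -0.03 (10) and all regions -0.03. On the second array these were 0.25 (13), 0.16 (14) and 0.09. On the second array the order of collagens and Adamts was thus the opposite of the pooled order. The lists are split unevenly over the arrays, so the pooled difference also carries that split.

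In signal, Adamts regions as a list were brighter than collagen regions at both ages. The median over regions of the processed signal was 617 at 3 months and 651 at 32 months for Adamts and Adamtsl, against 360 and 414 for collagens and 259 and 261 for all autosomal regions. This did not hold in every class. The 8 regions of proteases of hyaluronan-binding proteoglycans had 360 and 389.5, and those of Adamts7 and Adamts12 had 295 and 288. The other classes had from 492 to 1558.5 at 3 months, with the Adamts-like genes, which lack the protease domain, the brightest. Neither age was well above background at 42 of 179 collagen probes (23.5%), at 9 of 120 Adamts probes (7.5%) and at 24.4% of autosomal probes. Signals depend on each probe's sequence as well as on the DNA, and the part of sequence in this gap was not tested. Across regions the signals of the ages ran together, with a Spearman rho of 0.96 over 36 collagen regions and 0.94 over 26 Adamts regions. These points share 2 arrays and the same probes at both ages.

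**Figure D3:**
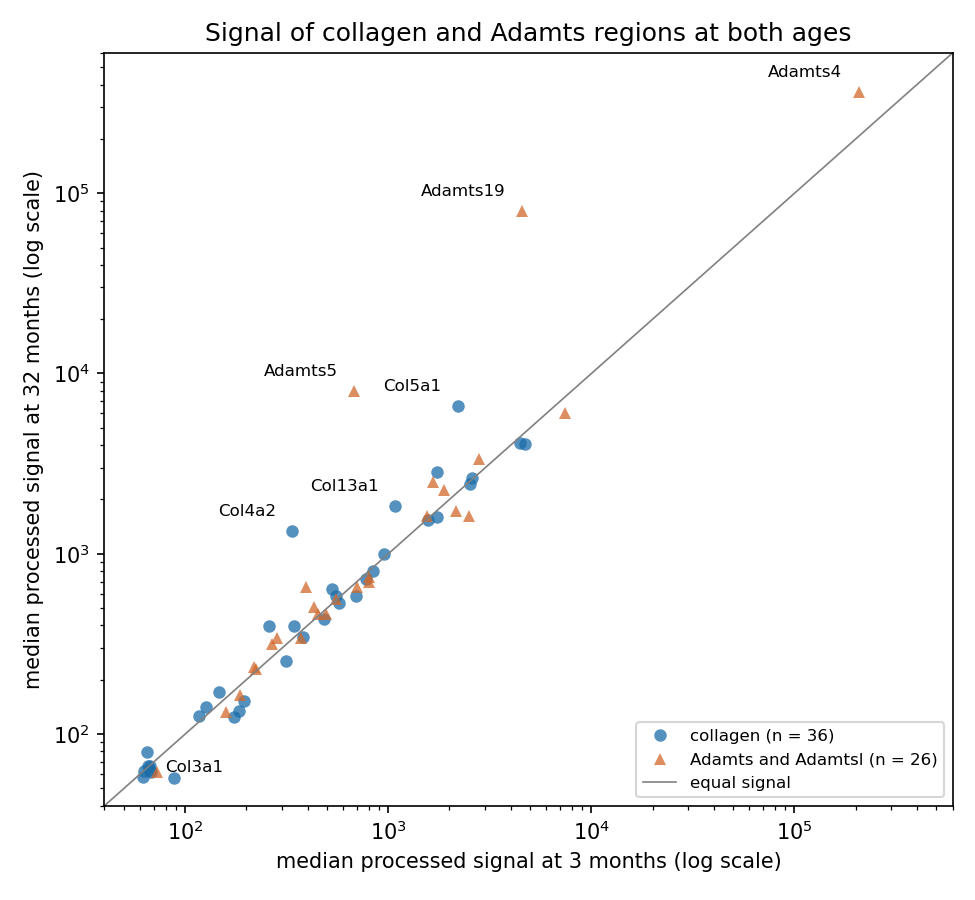
Median processed signal of each region at 3 months (x axis) and 32 months (y axis), both in intensity units on log scales, for 36 collagen regions (circles) and 26 Adamts and Adamtsl regions (triangles), all probes included. The line marks equal signal; most regions lie along it, Adamts19 and Adamts5 lie far above it, and Col3a1 is among a group at the background near 66. Each axis takes its own median over probes, so a region such as Col5a1 can sit off the line with a median ratio near 0.

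Probes were also described by the number of CG in their letters. Of member probes, 141 held no CG, 94 held 1 and 64 held 2 or more, and 69.5%, 77.7% and 89.1% of these were well above background at both ages. All autosomal probes had 56.8%, 70.6% and 84.8%. The lists differed in this, with 64.8%, 69.0% and 97.0% in collagens and 77.4%, 91.7% and 80.6% in Adamts and Adamtsl. Ratios of at least 1 were found in 9.35%, 12.3% and 15.0% of usable member probes, against 4.81%, 6.52% and 8.59% of all. In collagens that share was nearly flat, at 11.7% (7 of 60), 11.1% (5 of 45) and 12.5% (4 of 32). In Adamts and Adamtsl it was 6.38% (3 of 47), 13.9% (5 of 36) and 17.9% (5 of 28). Of these 13 Adamts probes, 6 lay in Adamts19 and 3 in Adamts5, so the shares by CG rest largely on these regions. Member probes were shorter with more CG, with medians of 54, 49 and 45 bases, and the part of length was not tested. By class of probe, 15.4% of usable member probes inside genes, 11.6% of promoter probes and 2.78% of divergent promoter probes had a ratio of at least 1. Over all autosomal probes these shares were 6.95%, 6.19% and 6.05%.

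RefSeq promoter windows of assembly GRCm38.p6, which cover 250 bases before and 50 after a gene's start, were found for 34 of 49 member genes (37 windows). Adamts19, Adamts5 and Col2a1 were among the genes without a window. The median number of CG in them was 15 for collagens (28 windows), 22 for Adamts and Adamtsl (9 windows) and 7 over all 32851 windows. Counts ran from 0 in Col3a1 and in 1 of the Col9a1 windows to 41 in Adamts2 and Adamts20. Col4a1 and Col4a2 had 37 and 33. The motif CCCGGG, which reads the same on both strands and holds a CG, occurred in 11 of 37 member windows (29.7%) and in 13.5% of all windows. A match describes the letters only. Member windows also held more CG, and the part of CG number in this gap was not tested. The sequences of 25 member probes of 21 genes were found in the windows of their own genes. The highest log2 ratio of these 25 was 0.63, in Col6a1, so they hold no probe of the runs. Of the 25, 1 probe each of Col9a2, Col10a1 and Col17a1 classed as inside the gene lay before the RefSeq start. Their positions were -159 to -111, -61 to -9 and -80 to -21, so the design's classes do not always match these starts.

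Genes that work with collagens and Adamts were taken from a list of 78, of which 62 had measured regions. Their 65 regions had a median of 0.05 and held 1 higher call and no lower one. The called gene was Bcan, the brain proteoglycan brevican, a substrate of Adamts4. It had 2.33 ± 0.55 over 3 probes, with median signals of 5780 at 3 months and 29100 at 32 months. Genes that process and cross-link collagen had a median of 0.09 over 17 regions, with Bmp1, the carboxy-propeptidase of procollagens, lowest at -0.59 and Loxl1, a lysyl oxidase, highest at 0.41. Other matrix proteases and inhibitors had -0.09 over 22, where Mmp23 had 1.04 ± 0.87 and was not called because its lowest probe lay at -0.89. Adamts substrates and other matrix genes had 0.12 over 26. Runs of adjacent usable probes at 1 or above were found in partner regions too. They lay in 1 of 17 regions of collagen processing, 1 of 22 of other proteases and inhibitors and 3 of 26 of substrates and matrix. The autosomal share was 4.21%. The layers of the gut wall were represented by marker genes, and DNA signals at them do not measure cell numbers. Their regions gave medians of 0.13 for epithelium (9 regions), 0.07 for smooth muscle (8), 0.13 for fibroblasts (9), -0.03 for immune cells (7) and -0.10 for endothelium (4), with no calls. The equal medians of epithelium and fibroblasts are 1 shared region, as both Cdx1-Pdgfrb regions count in both lists. The part of tissue composition in the member values was not tested.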

How the data were processed

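The submitters' processing notes name Agilent Feature Extraction 9.1.3.1 for both arrays. The deposited intensity values used were processed signals, background-subtracted and scaled between dyes per the file headers. The mean and background intensity values deposited with them served the normexp alternative. Its ratios were centred on the array median but lack that scaling between dyes. The authors' value table equalled the processed signals in 100% of spots. Files of the 4 sample records held 2 distinct contents, 1 per array, and each channel was used once.

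Log2 ratios were centred on the array median over all non-control probes (0.0044 on the first before centring, -0.14 on the second). Spots marked as outliers counted in that median but not as usable probes. The software was Python 3.11.15, pandas 2.3.3 and limma 3.58.1 (loess, normexp with an offset of 50). Usable probes made up 74.2% and 76.5%. Members and lists were chosen with earlier results of these data known. Described with values are called regions, medians past 1, the highest and lowest of each class and 11 genes by name; others were chosen after values were seen. Not analysed here are Col11a1, Col24a1, Col6a3 to Col6a6, Col20a1, Col22a1, Col28a1, Adamts3, Adamts6, Adamts9, Adamts14, Adamts17, Adamtsl1 and Adamtsl3. Alternatives covered centring, loess, background, probe filters, slide blocks, probe joining and the calling rule. Values of 2 member regions that enter the counts are not reported here.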

Additional observations from a re-analysis of the deposited data

How the results depend on the processing

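Adamts19 was called higher under all 12 alternatives and Col4a2 under all but normexp background correction, where 0 collagen regions were called. The Adamts and Adamtsl count became 2 with normexp (Adamts4 added, at 1.38), 2 with a threshold of 0.58 (Adamts4 added) and 2 with no demand on single probes (Adamts5 added). No alternative gave a lower call in either list. The collagen median ranged from -0.04 (uncentred) to 0.15 (normexp), that of Adamts and Adamtsl from 0.02 to 0.21, and their difference from 0.02 to 0.09. Of 321 values of 32 named regions, 14 moved beyond the region's SD over probes, 1 lost its call and 1 gained one. The other 305 kept their call or, in uncalled regions, stayed within that SD. In Adamts5 the SD was 2.47, and its values of 0.49 and 3.09 both counted as within it. For regions with a wide spread over probes this count therefore does not measure stability. Over all autosomal regions higher and lower calls numbered 304 and 77, against 237 and 105 uncentred, 418 and 8 with normexp, 245 and 44 with dim probes kept, 671 and 308 with the threshold of 0.58, and 450 and 124 with no demand on single probes. Centring on usable probes, chosen after seeing the data, gave 271 and 87. The cause of these shifts was not tested. No paired analysis was possible because each age has 1 sample per array and no differences were tested. With 1 sample per age, no dye swap and dim signals at many collagen probes, the precision of single ratios is limited.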
